A study of Homo sapiens with 2 samples.

Results

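The 44 genes described here lie on human chromosome 16 and were listed by symbol as a set that follows the dose of that chromosome. All 44 symbols were found once each among the 36601 genes of the files, 20 on the short arm (16p) and 24 on the long arm (16q). The members were chosen by symbol after the share of transcript counts on chromosome 16 had been seen to vary among these same cells, and the reason for each single gene is not given, so the levels and the co-variation of the members are a description and carry no test. The cells are A549, an established human lung adenocarcinoma line labelled epithelial, in 2 libraries of 1 culture condition each. The squashed library came from cells confined with polydimethylsiloxane micropillars, and the control library from cells in 2D culture. Both were sorted as live cells that had lost a chromosome reporter, about 1 cell in 500, after 48 h of recovery. The labels put both libraries in 1 batch, and which chromosome bore the reporter is not stated in them. Since each group is a single library, replicate error is unknown and no test was made. Intervals are 95% by the exact Clopper-Pearson method and reflect counting alone, and each ratio sets one library against the other, not one condition against the other.

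Chromosome copy number sets the number of templates that each gene on the chromosome has, so genes of both arms tend to go up and down together when whole chromosomes are gained or lost. Single genes are also set by their own promoters, by the cell cycle and by RNA stability, and a cell's share of transcripts is therefore not a count of chromosomes. Lung cancer lines such as A549 are aneuploid. The members serve unlike functions, from iron-sulphur cluster assembly to ribosome assembly and vesicle traffic, and most are genes that nearly every cell uses.

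Counts are unique molecular identifiers (UMIs), each standing for 1 captured transcript molecule. Of 3132 squashed and 2574 control barcodes, 906 (28.9%, 27.3 to 30.6) and 1190 (46.2%, 44.3 to 48.2) were used, with 10000 or more UMIs, 500 or more genes and no more than 20% of UMIs from mitochondrial genes. The median depth of these cells was 17090 UMIs in the squashed and 16717 UMIs in the control library. The libraries shared 4 barcodes, and 0 of these were used in both. Levels are given as UMIs scaled to a library total of 1000000 (CPM). Markers of lung epithelium summed to 2596 CPM in squashed and 3243 CPM in control cells, with 5 of 10 markers at 20 CPM or more in each library and 1 and 0 of them at 0. Markers of fibroblasts summed to 10.7 and 10.5 CPM (4 and 3 of 9 at 0), of immune cells to 23.2 and 15.4 CPM (7 and 6 of 10 at 0) and of endothelium to 10.4 and 45.1 CPM (5 and 5 of 7 at 0). Near the cut at 10000 UMIs, the median member share was 0.177% in 84 squashed cells with 10000 to 11000 UMIs and 0.194% in 106 with 9000 to 10000, and it was 0.231% in 94 control cells just above and 0.243% in 114 just below.

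The start regions of 4 members are shown because, among the members with an entry in the promoter table, these had the lowest ratios on each arm between cells low and cells high for the opposite arm, averaged over the libraries. They are RefSeq promoters on GRCh38.p14, 250 bases before to 50 after the gene start, 5′ to 3′ on the gene's strand. Capitals mark the GC box (GGGCGG or CCGCCC) and the CCAAT box (CCAAT or ATTGG), searched on both strands with overlaps counted; no TATAAA or TTTATA was found in these 4. MAPK3 (ERK1, a kinase of the growth factor pathway) and PARN (a poly(A) ribonuclease) lie on 16p at chr16:30123171-30123470 and chr16:14630211-14630510, both on the minus strand. NIP7 (ribosome assembly) and E2F4 (a repressing E2F transcription factor of the cell cycle) lie on 16q at chr16:69339522-69339821 and chr16:67191905-67192204, both on the plus strand.
MAPK3: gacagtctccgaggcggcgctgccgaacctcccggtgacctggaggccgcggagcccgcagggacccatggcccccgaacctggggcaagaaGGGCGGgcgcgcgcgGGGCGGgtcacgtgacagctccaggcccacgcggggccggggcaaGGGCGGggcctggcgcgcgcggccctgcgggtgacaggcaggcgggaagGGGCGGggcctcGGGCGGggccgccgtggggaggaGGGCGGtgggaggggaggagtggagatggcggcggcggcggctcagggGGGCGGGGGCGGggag
PARN: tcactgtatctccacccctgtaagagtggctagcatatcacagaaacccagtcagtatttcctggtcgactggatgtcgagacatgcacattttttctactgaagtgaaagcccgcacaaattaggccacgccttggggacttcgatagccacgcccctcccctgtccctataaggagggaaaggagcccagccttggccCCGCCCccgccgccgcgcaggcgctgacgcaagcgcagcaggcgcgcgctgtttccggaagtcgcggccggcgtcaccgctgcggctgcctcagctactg
NIP7: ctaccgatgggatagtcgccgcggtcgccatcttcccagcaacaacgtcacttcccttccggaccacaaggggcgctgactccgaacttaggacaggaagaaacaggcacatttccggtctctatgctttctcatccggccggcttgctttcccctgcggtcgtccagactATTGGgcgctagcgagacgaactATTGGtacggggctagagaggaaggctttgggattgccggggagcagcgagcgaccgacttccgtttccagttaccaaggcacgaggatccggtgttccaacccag
E2F4: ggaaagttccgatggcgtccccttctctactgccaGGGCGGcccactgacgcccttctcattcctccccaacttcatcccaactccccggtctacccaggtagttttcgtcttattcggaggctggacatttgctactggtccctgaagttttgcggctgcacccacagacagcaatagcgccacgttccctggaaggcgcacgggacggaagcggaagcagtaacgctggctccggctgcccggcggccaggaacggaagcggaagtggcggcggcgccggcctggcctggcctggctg
MAPK3 holds 8 GC boxes, PARN 1, E2F4 1 and NIP7 0, while NIP7 holds 2 CCAAT boxes and the others 0. GC content is 80.7% for MAPK3, 61.0% for PARN, 58.7% for NIP7 and 63.7% for E2F4. Of the 39 members with an entry, 29 (74.4%) hold a GC box, 10 (25.6%) a CCAAT box and 1 (2.56%) a TATA box, against 44.95%, 34.6% and 11.5% of 35116 promoters of all kinds in the table. The median GC content is 67.3% for the members and 58.7% for all. No motif searched is common to all 4 start regions.

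The members made up a small and variable share of each cell's transcripts. Thinned to 10000 UMIs, squashed cells held a median of 23 member UMIs and control cells 25. The share of all UMIs ran from 0.02% over a median of 0.23% to 0.58% in squashed cells, and from 0% over 0.25% to 0.57% in control cells. The 0% stands for 0 of 10000 UMIs after thinning, and without thinning the lowest control share was 0.0075%. The middle 50% of cells lay between 0.17% and 0.31% in the squashed and between 0.20% and 0.33% in the control library, so the libraries overlapped almost fully. The coefficient of variation (CV) of the share was 40.8% in squashed and 37.03% in control cells, where counting alone gives 20.2% and 19.5%. Without thinning the medians were 0.232% and 0.251% and the CVs 39.0% and 35.1%.

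Ribosomal and mitochondrial RNA take a changing part of each cell's total. The members were therefore also set against 5620 genes of other autosomes with 10 to 500 CPM, without cell cycle genes; this ratio is called the relative share. Its CV was 32.7% in squashed and 31.6% in control cells, against 20.8% and 20.01% from counting, which leaves 25.3% and 24.5%. For the 16p members alone 37.2% was left in squashed and 26.3% in control cells, and for the 16q members 22.02% and 26.9%. The sum of the 16p members thus varied more between squashed than between control cells, and that of the 16q members less. This difference was not tested. A few genes weigh heavily in the 16p sum. Without thinning, ARL6IP1 and RSL1D1 held 4677 and 3579 of its 17548 UMIs in squashed cells. In control cells they held 4497 and 4862 of 25097.

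**Figure D1:**
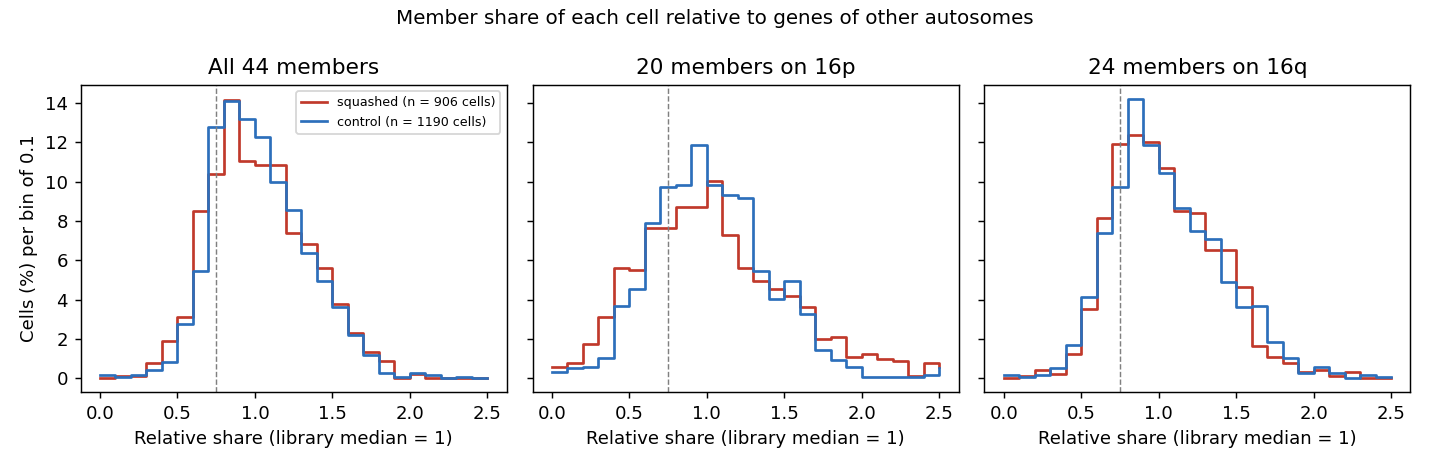
Distribution over cells of the relative share of all members, of the 16p members and of the 16q members (x axis, library median set to 1; y axis, percent of cells per bin, values over 2.5 in the last bin; not thinned). Each library forms 1 broad peak, and the 16p members of squashed cells spread furthest; the dashed line marks 0.75.

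Cells that were low on one arm were more often low on the other, read without thinning. The median cell held 16 squashed or 18 control UMIs of 16p members, and 26 of 16q members in each library. Counting noise is larger on both arms in cells with fewer UMIs, and its part in this overlap was not tested. Of 166 squashed cells with a 16q relative share under 0.75 of the median, 86 (51.8%, 43.9 to 59.6) were also under 0.75 on 16p, against 169 of the other 740 cells (22.8%, 19.9 to 26.04). Of 222 control cells low on 16q, 89 (40.1%, 33.6 to 46.9) were low on 16p, against 178 of the other 968 (18.4%, 16 to 20.98). Cells low on both arms made up 9.49% of squashed (7.66 to 11.6) and 7.48% of control cells (6.05 to 9.12). The class is a range and not a type of cell: 69 squashed and 116 control cells lay between 0.7 and 0.8 on 16p, and 108 and 117 on 16q.

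The arms varied together in both libraries. The covariance of the 16p and 16q sums over cells, divided by both means, has no part from the counting of separate genes, and its square root is given here as a shared CV. It was 22.99% in squashed and 21.9% in control cells. The plain correlation between the arms, which counting noise lowers, was r = 0.31 in each library (Spearman 0.32 and 0.31; 906 and 1190 cells), and r = 0.35 and 0.40 without thinning; the points share library, depth and the denominator. Each arm was then set against 39 arms of other chromosomes. The shared CV of the 16p members with those arms ran from -15.1% to 15.9% in squashed and from -8.30% to 10.1% in control cells, a minus sign marking a negative covariance. For the 16q members it ran from -7.62% to 13.1% and from -11.3% to 11.9%. In both libraries 0 of the 39 arms reached the value between the 16 arms. Genes of the other autosomes also form the denominator, with only an arm's own chromosome left out. This holds the values of those arms around 0, so a higher value between the 16 arms was favoured in advance.

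The same held for genes of chromosome 16 that are not on the list. The 107 other 16p and 90 other 16q genes with 10 to 500 CPM, metallothioneins left out, had a shared CV between the arms of 24.8% in squashed and 23.2% in control cells. For 17 other chromosomes with enough genes on both arms it ran from 7.58% to 16.2% in squashed and from 4.66% to 16.3% in control cells, highest for X in both. With members included, chromosome 16 stood at 24.2% and 22.8%. Chromosome 16 thus had the highest value of the 18 chromosomes in each library. Its share had been seen to vary in these same cells before the members were chosen, and genes off the list are part of that share. This rank and the later readings of those genes are therefore a description and no independent check.

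**Figure D2:**
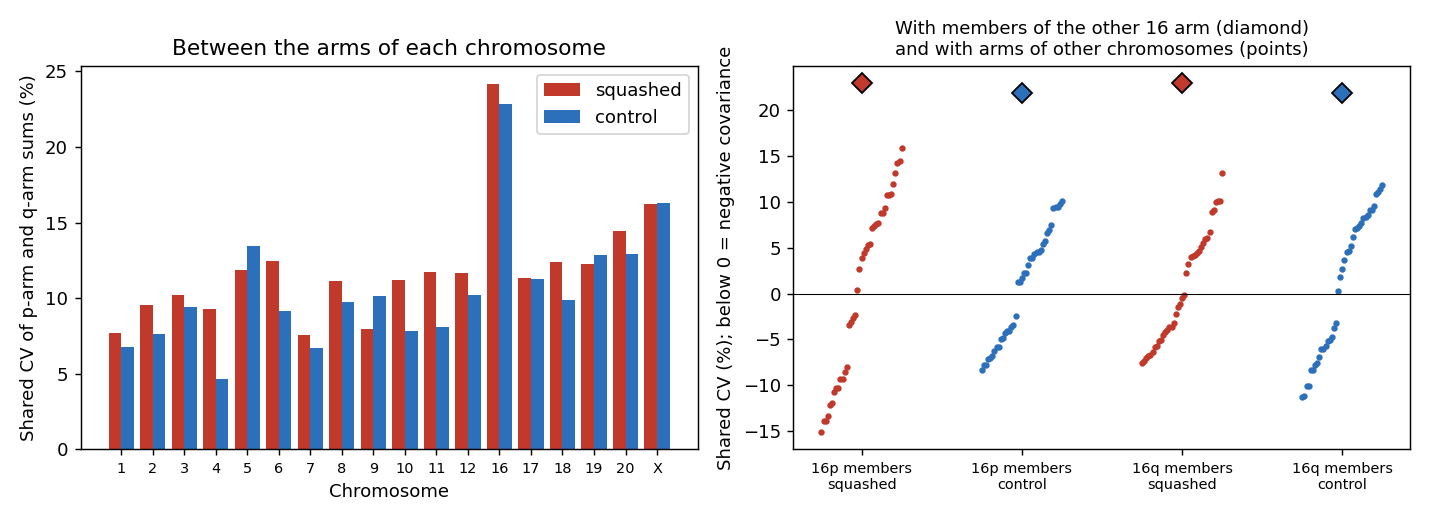
Left, shared CV (percent) between the p-arm and q-arm sums of each chromosome, squashed and control bars side by side; chromosome 16 stands at 24.2% and 22.8% and the others at most at 16.3%. Right, shared CV of the 16p or 16q members with the members of the other arm (diamonds) and with 39 arms of other chromosomes (points); all points lie under the diamonds.

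The co-variation was spread over many gene pairs. Of 480 pairs of a 16p and a 16q member, 335 (69.8%) had a positive covariance in the squashed library and 335 in the control library, against 53.05% and 51.0% of 247280 pairs of a member with a gene of another autosome. The genes of other autosomes are also the denominator, so their covariances with a member cancel in sum by construction. A near balance of positive and negative pairs was thus favoured in advance. Single pairs rest on few UMIs and are not named. Pairs within 16p had a shared CV of 24.6% in squashed and 17.03% in control cells, pairs within 16q 20.1% and 22.7%, and pairs across the centromere 22.6% and 22.3%. Genes under 2 Mb apart on 1 arm had 24.5% and 21.5%, genes 2 to 10 Mb apart 26.9% and 26.1%, and genes 10 Mb or more apart 17.7% and 18.5%. Pairs across the centromere thus lay within a few percentage points of close neighbours in both libraries.

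To see which members follow the rest, cells were ordered by the relative share of the members of 1 arm, and the genes of the opposite arm were read in the 25% of cells at the low end and the 25% at the high end, called low and high cells here (226 squashed or 297 control cells each). Ordering and reading share no gene. In squashed cells the 16q sum was 4243 per 1000000 UMIs of the other autosomal genes in cells low for 16p, against 5753 in cells high for 16p (log2 ratio -0.44, -0.51 to -0.37). The 16p sum was 2585 in cells low for 16q, against 3983 in high cells (-0.62, -0.71 to -0.54). In control cells the 16q sum was 4147 in low and 5675 in high cells (-0.45, -0.51 to -0.39), and the 16p sum 2946 in low and 4043 in high cells (-0.46, -0.53 to -0.38). The mean of both arms was 1.45-fold lower in low than in high squashed cells and 1.37-fold lower in low than in high control cells (log2 -0.53 and -0.45). With the total of all UMIs as the denominator this mean was -1.004 in squashed and -0.80 in control cells, and with cells of 5000 or more UMIs -0.35 and -0.30.

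Of the 44 members, 33 had a ratio of 0.8 or less between low and high squashed cells, a log2 ratio at least 0.32 below 0, and 4 were higher by the same log2 size, where 23.5% and 23.2% of genes of other autosomes were lower and higher. In control cells 32 were lower and 1 higher, where 17.2% and 27.4% of other genes were. The higher ones, named after their values were seen, were MRTFB, PGP, ARL2BP and ATP6V0D1 in squashed cells and TSC2 in control cells. The median log2 ratio of the members was -0.64 in squashed and -0.46 in control cells, and that of the other genes -0.01 and 0.04. The other genes together are the denominator of every ratio, so their pooled log2 ratio is 0 by construction. Their median near 0 is therefore no separate finding. Of the members 25 were lower by that size in both libraries and 36 lay below 0 in both, for which no share of other genes is given. Taken by library, 39 of 44 members lay below 0 in squashed and 40 in control cells. Of 11240 readings of genes of other autosomes, 5728 lay below 0 in squashed and 5170 in control cells. The members with at least 10 CPM, 39 of 44, counted 31 lower in squashed and 28 lower in control cells. Of the 197 other genes of chromosome 16, each read in cells ordered by members of the opposite arm, 133 (67.5%) were lower in low squashed cells and 113 (57.4%) in low control cells, with medians of -0.52 and -0.40.

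**Figure D3:**
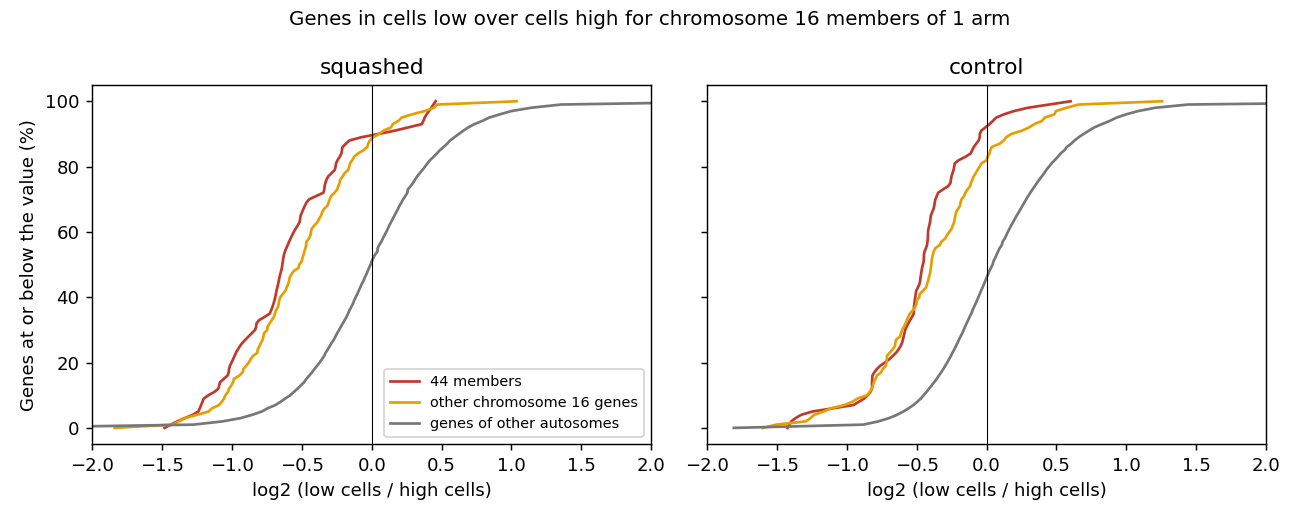
Percent of genes (y axis) at or below a log2 ratio of low over high cells (x axis, cut at -2 and 2) for the 44 members, 197 other chromosome 16 genes and 5620 genes of other autosomes, squashed left and control right. Both chromosome 16 curves lie left of 0, with medians from -0.64 to -0.40, and the curve of the other autosomes crosses 0 near its middle. The genes of other autosomes form the denominator, which centres their curve by construction.

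Averaged over both libraries, the lowest ratios on 16p were those of STUB1, MAPK3, PARN and PPP4C. STUB1, a ubiquitin ligase that works with chaperones, had 23 UMIs in low and 48 in high squashed cells (-1.02, -1.80 to -0.27) and 17 in low and 47 in high control cells (-1.42, -2.32 to -0.60). MAPK3 had 10 and 24 UMIs in low and high squashed cells (-1.22, -2.45 to -0.10) and 22 and 40 in low and high control cells (-0.82, -1.64 to -0.03). PARN stood at -1.10 in squashed and -0.52 in control cells. These ratios rest on small counts, and their intervals overlap between the libraries. PPP4C, the catalytic subunit of protein phosphatase 4, stood at -0.88 in squashed and -0.50 in control cells. The highest ratios of 16p were those of MRTFB, a coactivator of serum response factor, at 0.46 and 0.24, and TSC2, an inhibitor of the mTORC1 pathway, at -0.15 in squashed and 0.60 in control cells. The intervals of MRTFB and TSC2 span 0 in both libraries.

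By the same average the lowest on 16q were TERF2, NIP7, E2F4 and ORC6. NIP7 had 51 UMIs in low and 158 in high squashed cells (-1.38, -1.86 to -0.91) and 90 and 188 in low and high control cells (-0.95, -1.33 to -0.58). ORC6, a subunit of the origin recognition complex of DNA replication, had 46 and 130 UMIs in low and high squashed cells (-1.24, -1.76 to -0.75) and 73 and 139 in control cells (-0.82, -1.25 to -0.40). Both genes were lower in low cells of each library with intervals that exclude 0. TERF2, which binds telomeres, stood at -1.02 in squashed and -1.39 in control cells, and E2F4 at -1.48 and -0.70. The highest ratios of 16q were those of ARL2BP, a binding partner of the small GTPase ARL2, and ATP6V0D1, a subunit of the proton pump of lysosomes. ARL2BP stood at 0.36 in squashed and -0.42 in control cells and ATP6V0D1 at 0.38 and -0.37. For each of these genes the intervals overlap between the libraries.

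**Figure D4:**
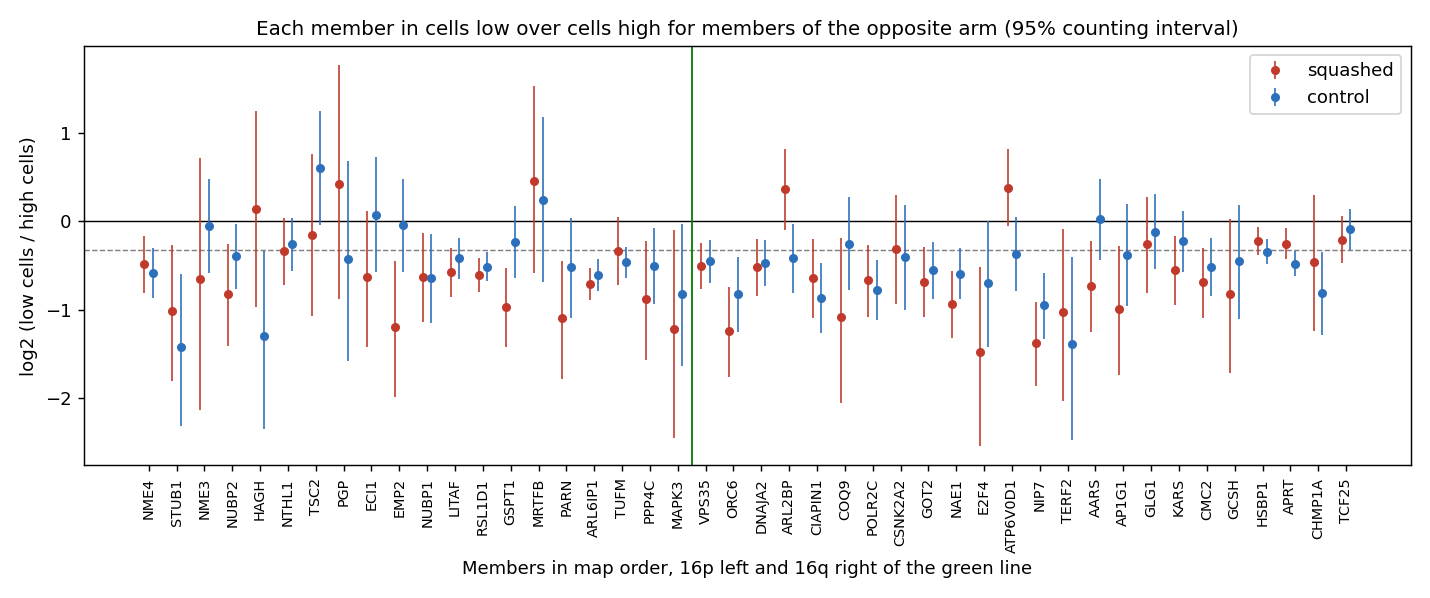
Log2 ratio of each member in low over high cells (y axis), cells ordered by the members of the opposite arm, with 95% counting intervals, squashed and control side by side; members run in map order and the dashed line marks a ratio of 0.8. Most points lie below 0 on both arms in both libraries, and in squashed cells 5 members (MRTFB, HAGH, PGP, ARL2BP and ATP6V0D1) lie above it.

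The members with many UMIs gave the narrowest intervals. ARL6IP1, a protein that shapes the endoplasmic reticulum, stood at -0.71 (-0.89 to -0.53) in squashed and -0.61 (-0.79 to -0.43) in control cells, and RSL1D1, a nucleolar protein of ribosome assembly, at -0.60 and -0.51. HSBP1, which binds heat shock factor 1, stood at -0.22 (-0.38 to -0.06) and -0.35 (-0.49 to -0.20), and APRT, of adenine salvage, at -0.25 and -0.48. All 4 of these were lower in low cells of each library. The intervals of ARL6IP1 and HSBP1 do not overlap in the squashed library, but these genes were read in cells ordered by different arms. The members that were lower by that size in neither library were MRTFB, TSC2, TCF25 and GLG1, named after their values were seen. TCF25 stood at -0.21 and -0.09 and GLG1, a Golgi membrane protein, at -0.26 and -0.12.

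By role, every group had a median below 0 in both libraries. The 6 genes of transcription, DNA replication and repair and telomeres had medians of -0.85 in squashed and -0.74 in control cells, with 5 and 4 of them lower by that size. All 3 genes of cytosolic iron-sulphur cluster assembly (NUBP1, NUBP2 and CIAPIN1) were lower by that size in each library, with medians of -0.64 in both. Of 8 mitochondrial genes 7 were lower in squashed and 6 in control cells, of 8 kinase, phosphatase and protein quality control genes 5 and 7, and of 9 membrane and traffic genes 6 and 7. Of 7 genes of RNA and translation 6 were lower in squashed and 3 in control cells. The 3 genes of nucleotide and sugar phosphate metabolism had 1 and 2. For comparison, 33 of all 44 members were lower by that size in squashed and 32 in control cells. Of the 197 other chromosome 16 genes, 133 (67.5%) were lower in squashed and 113 (57.4%) in control cells. Groups of 3 to 9 genes are too small to set a role apart from the members as a whole, and differences between roles were not tested.

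The 7 members of RNA and translation each lay closer to 0 in control than in squashed cells, as did the median of all members and that of the other chromosome 16 genes. GSPT1 stood at -0.97 in squashed and -0.24 in control cells, AARS, the alanyl-tRNA synthetase, at -0.73 and 0.02, and KARS, the lysyl-tRNA synthetase, at -0.55 and -0.23. AARS had 50 UMIs in low and 99 in high squashed cells and 80 in low and 85 in high control cells. The intervals of GSPT1 and AARS overlap between the libraries. NIP7 was the member of this group with ratios furthest below 0 in each library.

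Among the 8 mitochondrial proteins the ratios of TUFM, GOT2, NME4 and CMC2 lay closest between the libraries. TUFM stood at -0.34 in squashed and -0.46 in control cells. GOT2, an aspartate aminotransferase, stood at -0.68 in squashed and -0.55 in control cells, NME4, a nucleoside diphosphate kinase, at -0.48 and -0.58, and CMC2, an assembly factor of cytochrome oxidase, at -0.69 and -0.52. GCSH, of glycine cleavage, stood at -0.82 and -0.45 on 18 and 38 UMIs in low and high squashed cells and 36 and 53 in control cells. COQ9 stood at -1.09 and -0.25 and ECI1, an isomerase of fatty acid oxidation, at -0.64 and 0.08. HAGH, a hydrolase of the glyoxalase pathway, stood at 0.14 and -1.30, on 16 and 15 UMIs in low and high squashed cells and 13 and 33 in control cells. These last 3 had few UMIs, and the intervals of each gene overlap between the libraries.

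Of the 9 membrane and traffic genes, 6 in squashed and 7 in control cells were lower by that size, as given above, and ARL2BP and ATP6V0D1 lay above 0 in squashed cells. VPS35, the core of the retromer that sorts endosomal cargo, had 198 UMIs in low and 336 in high squashed cells (-0.51, -0.77 to -0.25) and 237 in low and 349 in high control cells (-0.45, -0.69 to -0.21). LITAF, an endosomal membrane protein, stood at -0.58 in squashed and -0.42 in control cells, and AP1G1, a subunit of the clathrin adaptor AP-1, at -0.99 and -0.38. CHMP1A stood at -0.46 and -0.82. EMP2, a membrane protein of epithelia, stood at -1.20 in squashed and -0.05 in control cells, on 22 and 52 UMIs in low and high squashed cells and 62 and 66 in control cells. VPS35 and LITAF thus had like ratios in both libraries, while those of EMP2 lay further apart with overlapping intervals.

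Of the kinases and protein quality control genes, NAE1, a subunit of the NEDD8 activating enzyme, stood at -0.94 in squashed and -0.59 in control cells. DNAJA2, a cochaperone of HSP70, stood at -0.52 and -0.47 and CSNK2A2, a catalytic subunit of casein kinase 2, at -0.32 and -0.41. POLR2C, a subunit of RNA polymerase II, stood at -0.67 and -0.77, and NTHL1, a DNA glycosylase of base excision repair, at -0.34 and -0.26. CIAPIN1 stood at -0.64 and -0.86, NUBP1 at -0.63 and -0.64 and NUBP2 at -0.83 and -0.40, all with intervals below 0. NME3 rested on 8 UMIs in low and 13 in high squashed cells and stood at -0.66, against -0.05 in control cells on 60 and 64 UMIs.

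The covariance of each member with the opposite arm was also read without thinning. As a shared CV it was highest in squashed cells for ORC6 (43.4% in squashed and 30.9% in control cells), NIP7 (42.0% and 28.7%) and E2F4 (40.1% and 29.7%), and in control cells for TERF2 (36.6% in squashed and 33.6% in control cells). Members with a negative value in 1 library included ARL2BP (-20.5% and 19.6%), ATP6V0D1 (-21.5% and 19.4%) and TSC2 (20.8% and -8.3%). MAPK3 (20.1% and 24.3%) and PARN (27.2% and 21.2%) lay nearer the value over all pairs across the centromere. These readings use the same cells and genes as the ratios above.

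The cell cycle ran with the member share. The 25% of cells with the lowest relative share of all 44 members had a median of 0.11% of UMIs on 52 G2/M genes in both libraries, against 0.91% in the 25% of squashed and 0.87% in the 25% of control cells with the highest share. G1/S genes took 0.06% in low and 0.17% in high squashed cells and 0.07% in low and 0.16% in high control cells. The mitochondrial share was 10.7% in low and 8.45% in high squashed cells and 11.2% in low and 5.84% in high control cells, and the nuclear RNAs NEAT1, MALAT1 and KCNQ1OT1 together took 0.90% and 0.525% in squashed and 1.05% and 0.25% in control cells. Depth differed less, with medians of 18325 UMIs in low and 16566 in high squashed cells and 18869 in low and 15375 in high control cells. The co-variation was also read within each library in the 50% of cells with fewer and the 50% with more G2/M transcripts; the part of the other measures was not tested. In cells poor in G2/M transcripts the members' arms had a shared CV of 21.5% in squashed and 25.6% in control cells, and in cells rich in them 18.3% and 15.2%. Chromosome 16 as a whole stood at 23.8% and 23.3% in the poor and at 19.1% and 19.7% in the rich cells. Each of 17 other chromosomes lay lower, at most at 19.2% and 20.4% in the poor and at 12.04% and 10.7% in the rich cells. The mean log2 ratio of low over high cells was -0.42 in poor and -0.35 in rich squashed cells, and -0.56 in poor and -0.22 in rich control cells. In the rich squashed cells 26 members were lower and 3 higher by the size above, where 22.4% and 19.9% of genes of other autosomes were. In the rich control cells 18 members were lower and 3 higher, where 16.5% and 19.8% of the other genes were, against 32 lower and 1 higher in all control cells.

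Among genes outside the list, the 6 with the lowest ratios all encode proteins of mitosis or cytokinesis. Over 3572 genes with 20 to 500 CPM in both libraries, the lowest ratios of low over high cells, ordered by all members, were those of SHCBP1, PLK1, KIF22, HMMR, KIF4A and NEK2. SHCBP1 on 16q, a protein of cytokinesis, stood at -1.72 in squashed and -1.97 in control cells. PLK1 on 16p, the polo-like kinase of mitosis, stood at -1.83 and -1.53, and KIF22 on 16p, a chromosome-binding motor, at -1.53 and -1.74. The other three lie on other chromosomes: the spindle protein HMMR (-1.86 and -1.26), the motor KIF4A (-1.54 and -1.54) and the centrosome kinase NEK2 (-1.82 and -1.21). Of the 50 lowest genes 8 lie on chromosome 16 and of the 50 highest 0, where chromosome 16 holds 2.80% of the genes. The highest were the calcium channel subunit CACNG8 (1.86 and 2.24), CNTNAP3B (1.83 and 1.94), PLAAT4 (1.71 and 1.95), ZBTB20 (1.34 and 2.24), the immediate early gene FOS (1.99 and 1.58) and the linker histone HIST1H1D (0.71 and 2.78). By chromosome, the median over 100 non-member genes of chromosome 16 was -0.62 in squashed and -0.55 in control cells, and the medians of the other 22 chromosomes ran from -0.20 to 0.13 and from -0.21 to 0.20, lowest for chromosome 5 in both libraries. Genes of the other autosomes also form the denominator, which holds the centre of their ratios near 0.

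Between the libraries the summed level of the members was nearly equal. The 44 genes summed to 2481 CPM in squashed and 2612 CPM in control cells (log2 ratio -0.07, -0.09 to -0.06), 995 and 1092 for 16p (-0.13, -0.16 to -0.11) and 1486 and 1520.5 for 16q (-0.03, -0.06 to -0.01). The median over all 6407 genes with at least 10 CPM was -0.09, and with median of ratios scaling, which moves it to 0.01, the summed ratio was 0.029. The direction of the sum therefore depends on the scaling.

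Single members differed more than the sum. Of 44 members 5 were lower by 1.5-fold or more in squashed cells and 1 was higher by as much, where 10.3% and 3.25% of the 6407 genes were, so the counts lie near that background. The 1 higher member was within that size when every cell was thinned to 10000 UMIs or all cells of at least 1000 UMIs were used. Of the 39 members that passed 10 CPM 5 were lower and 1 higher, and the 5 under it lay within 1.5-fold. NME3, a nucleoside diphosphate kinase, stood at 4.14 CPM in squashed and 19.96 CPM in control cells (-2.27, -2.65 to -1.91). TUFM, the elongation factor of mitochondrial translation, stood at 53.4 and 167.3 (-1.65, -1.75 to -1.55); it spans chr16:28842411-28846348 in GENCODE 44 on GRCh38. COQ9, of coenzyme Q synthesis, stood at 11 and 23.4 CPM (-1.09, -1.33 to -0.85). CHMP1A, of the ESCRT-III membrane scission complex, stood at 13.4 and 25.7 (-0.94, -1.16 to -0.72), and PPP4C at 21.4 and 35.2 (-0.72, -0.90 to -0.54). NUBP2 stood just short of that size at 27.5 and 40.8 (-0.57, -0.73 to -0.41).

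In the other direction STUB1 stood at 17.8 CPM in squashed and 11.2 CPM in control cells (0.67, 0.42 to 0.91), ARL6IP1 at 265.2 and 195.6 (0.44, 0.38 to 0.50) and PGP, a phosphatase of phosphoglycolate, at 6.63 and 5.22 (0.35, -0.03 to 0.73). NUBP1 stood at 30.2 and 23.9 (0.33, 0.16 to 0.51), ATP6V0D1 at 39.2 and 32.8 (0.26, 0.11 to 0.41) and GSPT1, the release factor eRF3a, at 46.7 and 39.6 (0.24, 0.10 to 0.38). By role, the 8 mitochondrial genes summed to 277.8 CPM in squashed and 403.2 CPM in control cells (-0.54, -0.59 to -0.49), and TUFM held most of that difference. The 9 membrane and traffic genes summed to 644.0 and 592.4 (0.12, 0.08 to 0.16) and the 7 genes of RNA and translation to 516.5 and 504.8 (0.03, -0.01 to 0.07).

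**Figure D5:**
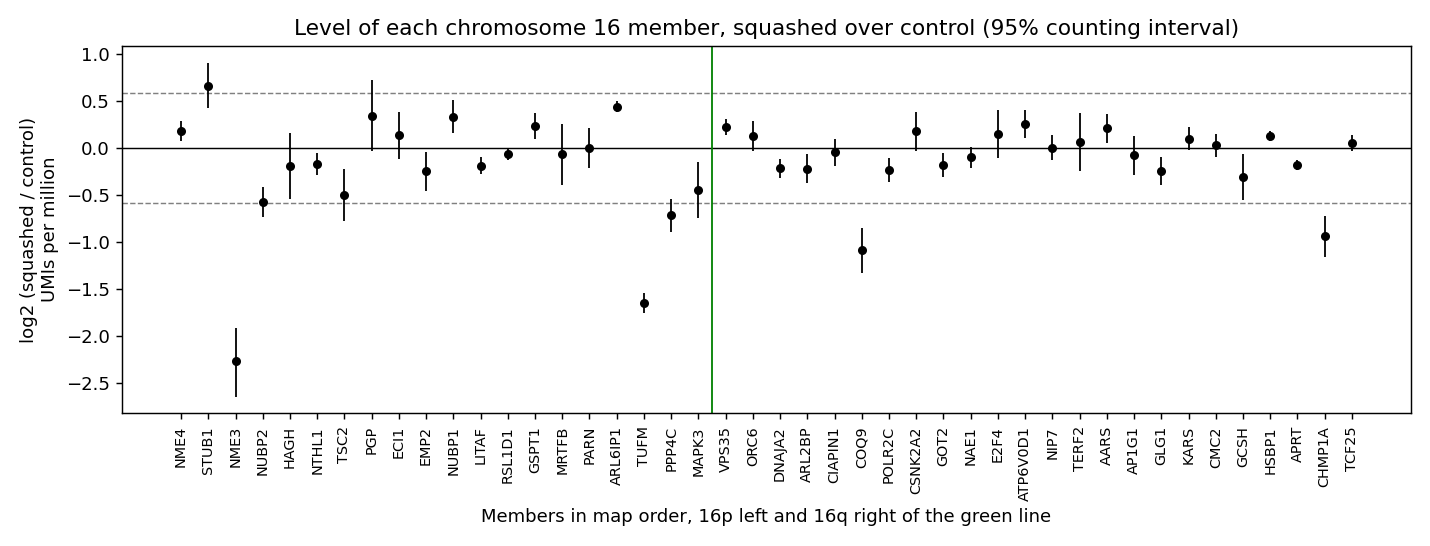
Log2 ratio of squashed over control CPM for each member (y axis) with its 95% counting interval, in map order; dashed lines mark 1.5-fold. NME3, TUFM, COQ9, CHMP1A and PPP4C lie below the lower line and STUB1 above the upper.

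The ratios between libraries and between low and high cells differed in rank for some members. TUFM, with a level of 53.4 CPM in squashed and 167.3 CPM in control cells, stood at -0.34 in squashed and -0.46 in control cells between low and high cells, and STUB1, the member most above 0 between libraries, was among the lowest between low and high cells. Of the members 7 overlap another measured gene on the opposite strand, namely STUB1, HAGH, AARS, KARS, CMC2, CSNK2A2 and TERF2, and their counts are uncertain as far as reads were assigned without strand. Copies elsewhere in the genome could also have taken reads of TUFM and GCSH, which have processed pseudogenes.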

How the data were processed

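Single-cell RNA of 1 squashed and 1 control library of A549 cells was made with a Chromium 3.1 kit. The authors deposited whole-number UMI counts per gene and barcode, not normalized, made with Cell Ranger on the GRCh38 reference of 10x Genomics, whose version is 4.0.0 per the file headers and 5.0.1 per the design text. The submitters' processing notes name R 4.3.2. The step that called barcodes as cells is not stated there.

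From these counts, cells were kept as stated in the report and thinned once, with a fixed seed, to 10000 UMIs. Levels are summed UMIs scaled to 1000000 UMIs a library (CPM), without thinning. Genes were placed on arms by GENCODE 44 on GRCh38 (36366 of 36601 genes matched by identifier; chromosome 16 split at 37 Mb). A prior of 0.5 count was used where a count was 0. Cells held 17633796 squashed and 22991157 control UMIs in all. Scrublet called 15 squashed and 16 control doublets, of which 11 and 14 were among the cells used; they stayed in, except in one alternative. RNA free in droplets was not estimated. Tools were edgeR 4.0.16 (TMM factors only) in R 4.3.3, and scanpy 1.11.5, pandas 2.3.3, matplotlib 3.10.9, scipy 1.17.1 and numpy 2.4.6 in Python 3.11.15; the steps were tested on simulated data.

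The members, lists and alternatives were chosen with earlier results of these data known. Named by rule were the 6 lowest and 6 highest members between libraries, on each arm the 4 lowest and 2 highest between low and high cells, and the 6 lowest and 6 highest non-members. The 4 members with the most UMIs and the rest of the 44 were described as well, by role, after their values were seen.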

Additional observations from a re-analysis of the deposited data

Results flagged for a closer look

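For 3 members the ratio of low over high cells had opposite directions in the 2 libraries, by at least 0.32 on the log2 scale in each, which was not tested. PGP stood at 0.42 in squashed and -0.43 in control cells, a difference of 0.85 on the log2 scale, on 13 and 10 UMIs in low and high squashed cells and 13 and 18 in control cells. ARL2BP stood at 0.36 and -0.42, a difference of 0.78, on 85 and 79 UMIs in low and high squashed cells and 95 and 137 in control cells. ATP6V0D1 stood at 0.38 and -0.37, a difference of 0.75, on 95 and 87 UMIs in low and high squashed cells and 84 and 117 in control cells. The intervals of PGP ran from -0.88 to 1.77 in squashed and from -1.58 to 0.68 in control cells. Those of ARL2BP ran from -0.10 to 0.82 and from -0.81 to -0.03. Those of ATP6V0D1 ran from -0.05 to 0.82 and from -0.79 to 0.05. For each gene the intervals overlap between the libraries. The share of other genes that changed direction by this size is not given.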

How the results depend on the processing

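No paired analysis was possible because each group has 1 library. Over 88 values under alternatives, 64 stayed within the counting interval of a ratio or within 1.5 times a count or shared CV, 22 moved and 2 turned their direction. The summed level of squashed over control turned to 0.018 with TMM and 0.029 with median of ratios scaling, and was -0.14 in all cells of at least 1000 UMIs, -0.044 in cells with at least 2500 genes and -0.10 with each cell thinned. The count of members at least 1.5-fold higher was 0 in all cells of at least 1000 UMIs, with each cell thinned, and among members with at least 20 CPM. The mean ratio of low over high cells in squashed and control cells was -1.004 and -0.80 relative to all UMIs, -0.64 and -0.66 in cells with at least 20000 UMIs, -0.35 and -0.30 with at least 5000, -0.42 and -0.56 in the 50% of cells with the lower and -0.35 and -0.22 in the 50% with the higher G2/M share, and -0.45 and -0.36 without the 4 members with the most UMIs; in control cells it was also -0.60 without thinning and -0.63 between the lowest and highest 10% of cells. The count of control members lower in low cells was 18 in the 50% with the higher G2/M share. The shared CV of squashed cells was 34.7% relative to all UMIs. The cause was not tested. A second thinning draw, the removal of the 4 members and the G2/M split for other chromosomes were chosen after seeing the data. A member sum near 24 UMIs per cell limits what can be said of a single cell, and genes under 10 CPM rest on few counts in low and high cells.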

Other observations

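Of the 39 arms of other chromosomes, 5p had the highest shared CV with the 16p members (15.9% in squashed and 10.1% in control cells) and 5q the highest with the 16q members (13.1% and 11.9%). Chromosome 5 also had the lowest median ratio of low over high cells among the other chromosomes, -0.20 in squashed and -0.21 in control cells over 164 genes.

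The metallothionein genes of chromosome 16, which bind zinc and copper and are not members, summed to 2684 CPM in squashed and 1025 CPM in control cells (log2 ratio 1.39, 1.37 to 1.41). In cells ordered by the 16p members their sum stood at -0.29 (-0.34 to -0.23) in low over high squashed cells and -0.17 (-0.24 to -0.10) in control cells, closer to 0 than the 16q members in both libraries.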
